A study of Mus musculus with 4 samples.

Results

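A group of 10 genes that carry tryptophan breakdown and NAD synthesis was described in mouse liver: *Tdo2*, *Afmid*, *Kmo*, *Kynu*, *Haao*, *Acmsd*, *Qprt*, *Nampt*, *Nadk* and *Nnmt*. The genes were chosen by their place in the pathway, and the rows with these symbols were taken from a table of 35739 genes. Each symbol matched 1 row, and 10 of 10 passed the filter for testing, a mean level no lower than 1 TPM, as did 9581 genes in all. TPM is the share of a transcript in a library, corrected for transcript length and scaled to a fixed total, so that levels of different genes can be set side by side.

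The libraries came from liver RNA of wild-type (WT) mice, replicates 2 and 3, and of *Usp21* knockout (KO) mice, replicates 1 and 3, and values of the WT pair and the KO pair are given in that order. *Usp21* encodes a deubiquitinase, an enzyme that takes ubiquitin off other proteins. The KO allele lacks exons 3 and 4, which were removed by Cre–loxP recombination throughout the body and leave a stop codon in exon 5. It was made in embryonic stem cells of a strain other than C57BL/6, the strain of the blastocysts they were injected into, so that KO and WT littermates had a background mixed from both strains. The mice were 10 to 11 weeks old, ate a normal diet and lived under 12 h of light and 12 h of dark. The sex of the mice, the hour at which livers were taken and whether each library came from 1 mouse are not given in the sources used here, so the p-values measure only the spread between these libraries.

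In the liver, tryptophan is opened to N-formylkynurenine, turned into kynurenine and then into 3-hydroxyanthranilate, and the ring of that product is opened to an unstable semialdehyde. If the semialdehyde closes on its own it becomes quinolinate, from which NAD is made de novo, and if it is decarboxylated it leaves for full oxidation. NAD is also remade from nicotinamide by salvage, NAD kinase turns part of it into NADP, and methylation of nicotinamide takes it out of the salvage route.

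*Usp21* itself was listed at 4.07 and 6.29 TPM in WT replicates 2 and 3 and at 1.64 and 2.93 TPM in KO replicates 1 and 3. Both KO libraries lay below both WT libraries, and the log2 fold change of −0.92 (SE 0.33) did not pass the test (limma with Benjamini-Hochberg adjustment, adjusted p = 0.464). Reads from the exons that remain in the KO allele can still be counted. The libraries had 12876 to 13620 genes above 0 TPM, and the 10 highest genes held 25.7% to 30.7% of each total. TPM does not record depth, and a second table, of TMM-normalized CPM (read counts scaled to library size), held 102898 to 148164 reads per library after whole reads were recovered from it. Of 686 genes whose lowest TPM was 100 or more, the CPM table lists 428 at 0 in all 4 libraries, *Haao* and *Nnmt* among them, and was used only as an alternative. The hepatocyte markers summed to 50870 to 73442 TPM and no tested hepatocyte marker of 6 passed the adjusted threshold, and the label liver is borne out by these levels. Of the markers of other cells, Kupffer cell genes summed to 52.8 to 137 TPM and adipocyte genes to at most 0.822 TPM, with *Plin1*, *Retn* and *Lep* at 0 in every library. In liver pieces of this kind, fewer cells of a type and less RNA per cell cannot be told apart.

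Across the 10 genes, the KO and WT libraries differed in no direction shared by the pathway. *Tdo2* and *Kynu* were higher in both KO libraries than in both WT libraries, *Afmid* and *Kmo* were lower in both, and the other 6 genes overlapped between the genotypes. None passed the adjusted threshold of 0.05 (limma on log2(TPM + 1), Benjamini-Hochberg over 9581 genes, lowest adjusted p of the 10 = 0.464), beside 8 genes (0.0835%) of all tested. At an unadjusted p under 0.05, 2 of the 10 genes were called (20%), beside 1005 genes (10.5%) of all tested. Of these 2, *Kynu* was higher and *Kmo* lower, while 8.45% of all tested genes were called higher and 2.04% lower. With 1 library left out, the log2 fold change ran from −0.64 to −0.39 for *Kmo* and from 0.41 to 0.85 for *Kynu*. Both kept their sign each time. None of the 10 genes differed by at least 2-fold, which 3.68% of tested genes did.

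On TPM without further scaling, the count of genes without overlap reads differently by direction. Both KO libraries lay above both WT libraries for 2 of the 10 genes (20%) and for 3292 tested genes (34.4%), and below them for 2 of the 10 (20%) and for 1046 tested genes (10.9%). With 2 libraries per genotype an exact two-sided permutation test cannot give a p under 0.333, so the order of 4 values alone is a description. The median log2 fold change was −0.01 over the 10 genes, between −0.36 (without KO replicate 1) and 0.19 (without KO replicate 3) with 1 library left out, and 0.15 over all tested genes. The median of all tested genes was 0.04 when libraries were scaled to an equal upper quartile and 0.02 when they were scaled by median ratios, and with it the share of unadjusted calls that were higher in KO went from 80.6% to 56.0% and 53.1%. Under both scalings *Tdo2* and *Kynu* still lay above and *Afmid* and *Kmo* below the WT libraries, with *Qprt* also below by median ratios. Of all tested genes, 24.5% lay above and 18.6% below under upper quartile scaling. By median ratios these shares were 23.5% and 19.9%, so the difference by direction depends on the scaling. The unadjusted calls were *Afmid* and *Kmo* in place of *Kynu* and *Kmo*, beside 879 (upper quartile) and 876 (median ratios) of the 9581 genes tested.

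**Figure D1:**
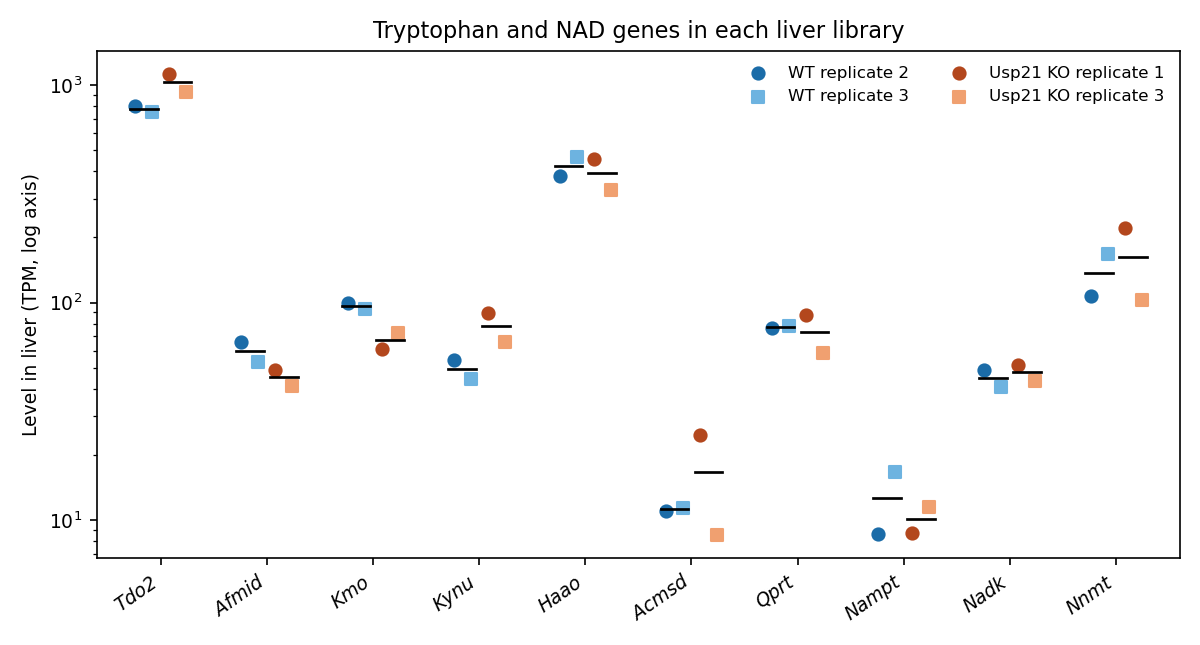
TPM of the 10 genes in each library, on a log axis, with points for WT and *Usp21* KO libraries and a bar at the mean of each pair. *Tdo2* stands highest (748 to 1124 TPM) and *Acmsd* and *Nampt* lowest, and the genotypes are apart in *Tdo2*, *Afmid*, *Kmo* and *Kynu* only.

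The levels of the 10 genes spanned almost 2 orders of magnitude. *Tdo2* was the highest with a mean of 901 TPM over the 4 libraries, above 98.8% of tested genes, followed by *Haao* at 408 TPM and *Nnmt* at 149 TPM. These 3 genes reached at least 100 TPM in every library, and their ranges did not touch one another. *Kmo*, at 81.6 TPM, lay below the range of *Nnmt*, and from *Kmo* through *Qprt* (75.1 TPM), *Kynu* (63.6 TPM), *Afmid* (52.5 TPM) and *Nadk* (46.4 TPM) each gene's range overlapped that of its neighbour. *Acmsd* (13.9 TPM) lay below the range of *Nadk*, and its range overlapped that of *Nampt* (11.4 TPM), the lowest of the 10 and still above 61.0% of tested genes. Summed over the 10 genes, the libraries held 1656 to 2175 TPM, with the highest sum in KO replicate 1.

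*Tdo2* (ENSMUSG00000028011, chr3:81957090-81976202 on the reverse strand of mm10) encodes tryptophan 2,3-dioxygenase, the enzyme that opens the indole ring in hepatocytes and a textbook target of glucocorticoids. The gene was listed at 803 and 748 TPM in WT replicates 2 and 3 and at 1124 and 930 TPM in KO replicates 1 and 3. Both KO libraries were higher than both WT libraries, and the KO libraries lay further from each other than the lower of them did from the higher WT library. The mean was 775 ± 38.7 TPM in WT and 1027 ± 137 TPM in KO (SD, n = 2 each), 1.32 times higher. The log2 fold change of 0.40 (SE 0.19, 95% interval −0.07 to 0.87) did not pass limma's test with Benjamini-Hochberg adjustment (adjusted p = 0.498), and it kept its sign without each library in turn, between 0.26 and 0.54. In the CPM table it had the opposite sign, on 1 read in each WT library and 0 in each KO library.

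Of the 9 glucocorticoid-responsive genes looked at beside *Tdo2*, 0 passed the adjusted threshold, 4 were higher in KO at an unadjusted p under 0.05 (8.45% of all tested genes were) and 5 lay above both WT libraries (34.4% of all tested genes did). The median log2 fold change was 0.45, between 0.29 and 0.72 over both scalings and with each library left out. Other members of the list had the opposite sign. *Sgk1*, a kinase gene, was lower in both KO libraries than in both WT libraries, at a log2 fold change of −0.08. The metallothionein genes *Mt1* and *Mt2* had log2 fold changes of −0.71 and −0.56 with overlapping genotypes. *Zbtb16*, a transcription factor, was listed at 0.773 and 0.904 TPM for the WT pair and at 4.61 and 2.83 TPM for the KO pair, and *Tsc22d3*, which encodes the leucine zipper protein GILZ, at 27.4 and 37.1 TPM for the WT pair and at 45.9 and 67.1 TPM for the KO pair. In these, as in *Tdo2*, the genotypes did not overlap and KO was higher. Hormone levels were not analysed here, and the part of glucocorticoid-responsive expression in the *Tdo2* values was not tested.

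*Afmid* (ENSMUSG00000017718, chr11:117825924-117839908, forward strand) encodes the formamidase that releases kynurenine from N-formylkynurenine. Its level was 66.2 and 53.1 TPM for the WT pair and 49.1 and 41.4 TPM for the KO pair. Both KO libraries were lower than both WT libraries, and the lower WT library and the higher KO library were close to each other. Its log2 fold change was −0.39 (SE 0.20, 95% interval −0.88 to 0.11) and did not pass limma's test (Benjamini-Hochberg adjusted p = 0.516).

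The *Afmid* values depend on how reads are shared with an annotated readthrough gene. *Gm20708* spans *Afmid* on the same strand, and 43.2% of the 31-base stretches of *Afmid* transcripts also occur in transcripts of other genes. *Gm20708* was listed at 0 and 10.4 TPM for the WT pair and at 21.6 and 3.76 TPM for the KO pair. When the 2 genes were summed, an alternative added after the data were seen, the values were 66.2 and 63.5 TPM for the WT pair and 70.7 and 45.2 TPM for the KO pair. The genotypes then overlapped, and the log2 fold change was −0.19 (SE 0.25, limma, Benjamini-Hochberg adjusted p = 0.778).

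*Kmo* (ENSMUSG00000039783, chr1:175620381-175662116, forward strand) encodes kynurenine 3-monooxygenase, a flavoprotein of the outer mitochondrial membrane that makes 3-hydroxykynurenine. The WT pair gave 99.2 and 93.0 TPM and the KO pair 61.4 and 72.8 TPM. Both KO libraries were lower than both WT libraries, and the WT libraries lay closer to each other than to either KO library. The mean was 96.1 ± 4.40 TPM in WT and 67.1 ± 8.06 TPM in KO (SD, n = 2 each), 0.699 of the WT level. A log2 fold change of −0.52 (SE 0.17, 95% interval −0.95 to −0.08) had an unadjusted p of 0.0270 in limma and did not pass after Benjamini-Hochberg adjustment (adjusted p = 0.464). Relative to the median of all tested genes the difference was −0.67. The log2 fold change itself stayed between −0.64 and −0.39 without each library in turn.

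*Kmo* lies on the same chromosome as *Usp21*, 4.33 Mb away. Because the deleted allele came from stem cells of another strain, an effect of the deletion on *Kmo* and an effect of that strain's sequence carried along beside it cannot be told apart in these libraries. At the start of its annotated span *Kmo* also overlaps *Fh1*, the gene of fumarate hydratase, on the opposite strand. A RefSeq start of *Kmo* lies further along, after chr1:175631943-175632192, and outside the span of *Fh1*. *Fh1* was listed at 106 and 128 TPM for the WT pair and at 255 and 149 TPM for the KO pair, and the KO values were the higher ones. The annotated spans of both genes share 5255 bases, the strand setting of the quantification is not given in the sources used here, and the part of *Fh1* in the *Kmo* values was not tested.

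*Kynu* (ENSMUSG00000026866, chr2:43555329-43682715, forward strand) encodes kynureninase, which needs vitamin B6 and splits 3-hydroxykynurenine into alanine and 3-hydroxyanthranilate. Levels of 54.3 and 44.7 TPM in the WT pair stood beside 89.6 and 65.6 TPM for the KO pair. Both KO libraries were higher than both WT libraries. The mean was 49.5 ± 6.80 TPM in WT and 77.6 ± 17.0 TPM in KO (SD, n = 2 each), 1.57 times higher. The log2 fold change of 0.63 (SE 0.22, 95% interval 0.08 to 1.18) was the highest of the 10 genes, with an unadjusted p of 0.0319 in limma that did not pass after Benjamini-Hochberg adjustment (adjusted p = 0.464). Relative to the median of all tested genes the difference was 0.48. Without each library in turn the log2 fold change itself lay between 0.41 and 0.85.

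*Kmo* and *Kynu* act on successive steps, and their values can be set against each other within each library, where the ratio of both does not depend on how the library was scaled. There were 1.83 and 2.08 *Kmo* transcripts for each *Kynu* transcript in WT, and 0.685 and 1.11 in KO. Both KO ratios lay below both WT ratios, with means of 1.95 ± 0.179 in WT and 0.898 ± 0.300 in KO (SD, n = 2 each), so that *Kmo* was the more abundant transcript in both WT libraries and the less abundant in 1 of 2 KO libraries. *Kmo* and *Kynu* also had the lowest and the highest log2 fold change of the 10 genes, so the ratio is given as a description without a test. For *Tdo2* over *Kynu*, the ratios were 14.8 and 16.7 in WT and 12.5 and 14.2 in KO, again lower in both KO libraries, by a KO-to-WT factor of 0.848.

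**Figure D2:**
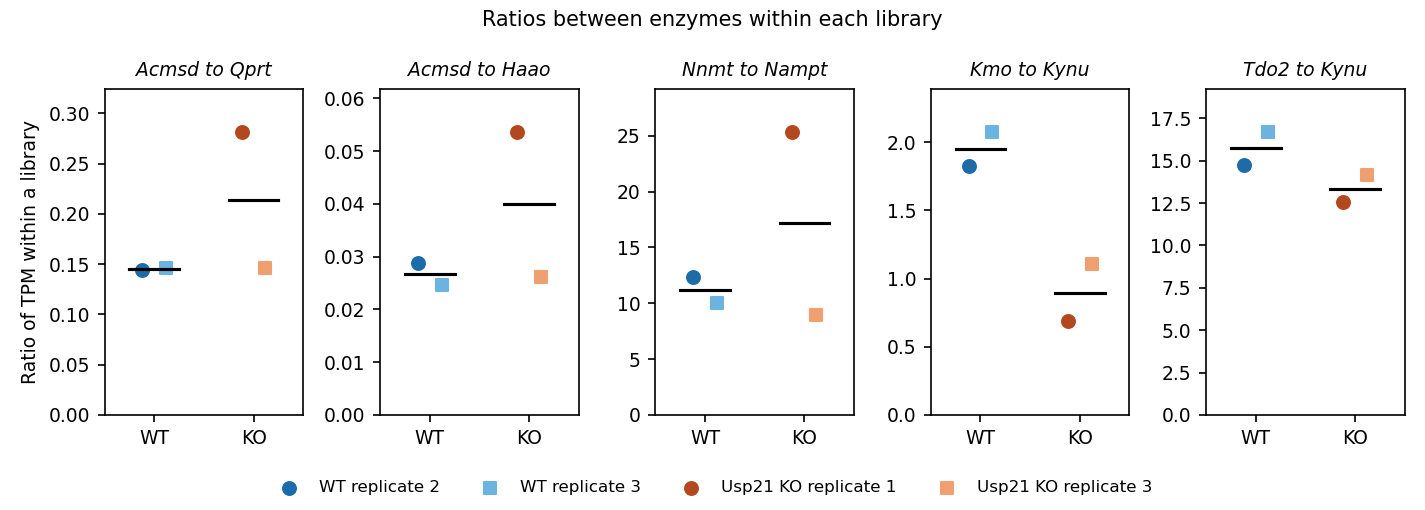
Ratios of TPM between pairs of the genes within each library, with 1 point per WT or *Usp21* KO library. *Kmo* over *Kynu* is 1.83 and 2.08 in WT and 0.685 and 1.11 in KO, whereas *Acmsd* over *Qprt* is higher only in KO replicate 1 (0.282, beside 0.144 to 0.146 in the other libraries).

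*Haao* (ENSMUSG00000000673, chr17:83831156-83847963, reverse strand) encodes the dioxygenase that opens the ring of 3-hydroxyanthranilate. It was listed at 381 and 466 TPM for the WT pair and at 458 and 328 TPM for the KO pair, and the genotypes overlapped. Its log2 fold change was −0.12 (SE 0.23, 95% interval −0.69 to 0.45) with a limma adjusted p of 0.857 (Benjamini-Hochberg), and its sign turned without WT replicate 3 (0.02) and without KO replicate 3 (0.12).

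*Qprt* (ENSMUSG00000030674, chr7:127107114-127122226, reverse strand) encodes quinolinate phosphoribosyltransferase, which commits quinolinate to NAD. The WT pair gave 76.4 and 78.2 TPM and the KO pair 87.2 and 58.5 TPM. The KO libraries lay on either side of the WT libraries, which were close together. Its log2 fold change was −0.11 (SE 0.23, 95% interval −0.68 to 0.46), not past the test (limma, Benjamini-Hochberg adjusted p = 0.868), and it was 0.17 without KO replicate 3.

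*Acmsd* (ENSMUSG00000026348, chr1:127729413-127767978, forward strand) encodes the decarboxylase that draws the semialdehyde away from quinolinate and so from NAD. It was listed at 11.01 and 11.4 TPM for the WT pair and at 24.6 and 8.54 TPM for the KO pair. KO replicate 1 was the highest and KO replicate 3 the lowest of the 4 libraries. The log2 fold change of 0.36 (SE 0.46, 95% interval −0.80 to 1.51) did not pass (limma, Benjamini-Hochberg adjusted p = 0.784). In TPM it rests on KO replicate 1, since it was −0.36 without that library and 1.07 without KO replicate 3. That 1.07 was the only value of the 10 genes beyond 2-fold among the TPM alternatives. In CPM both KO libraries lay above both WT libraries, on 1 read in each WT library and 6 and 3 reads in KO replicates 1 and 3. The log2 fold change there was 1.87 with limma, 1.92 with edgeR and 2.00 with DESeq2, and none passed the adjusted threshold. *Acmsd* lies 43.5 Mb from *Usp21* on chromosome 1.

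At the branch point, *Acmsd* over *Qprt* was 0.144 and 0.146 in WT and 0.282 and 0.146 in KO, and *Acmsd* over *Haao* was 0.0289 and 0.0245 in WT and 0.0537 and 0.0261 in KO. In KO replicate 3 both ratios were near the WT values, and only KO replicate 1 stood above them. The summed level of periportal hepatocyte genes was also highest in KO replicate 1. The whole list of 7 summed to 3674 and 3403 TPM for the WT pair and to 4993 and 3468 TPM for the KO pair. *Ass1* held the largest part, at 2137 and 1960 TPM in WT and at 3138 and 1551 TPM in KO. *Sds*, the serine dehydratase gene, was listed at 103 and 92.4 TPM for the WT pair and at 219 and 105 TPM for the KO pair. Like these, *Gls2* and *Cdh1* were highest in KO replicate 1. *Cyp2f2* and *Pck1* were highest in KO replicate 3 and *Hal* in WT replicate 2. The part of periportal expression in the *Acmsd* values was not tested.

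*Nampt* (ENSMUSG00000020572, chr12:32819545-32853349, forward strand) encodes the rate-limiting enzyme of nicotinamide salvage. It was listed at 8.66 and 16.7 TPM for the WT pair and at 8.69 and 11.5 TPM for the KO pair. WT replicate 3 was the highest, and the lower libraries of both genotypes were nearly equal. The log2 fold change of −0.25 (SE 0.34, 95% interval −1.10 to 0.60) did not pass (limma, Benjamini-Hochberg adjusted p = 0.792). Leaving out WT replicate 2 gave −0.69 and leaving out WT replicate 3 gave 0.19. The lymphocyte and neutrophil markers summed to 5.36 and 43.9 TPM for the WT pair and to 6.57 and 3.54 TPM for the KO pair. The sum was highest in the same WT replicate 3, nearly all of it *S100a8* (29.1 TPM) and *S100a9* (12.7 TPM), neutrophil calcium-binding protein genes. *Cd3e* was also highest there, whereas *Cd79a* was highest in WT replicate 2 and *Ms4a1* and *Ptprc* in KO replicate 1. The part of these markers in the *Nampt* values was not tested.

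*Nampt* is known as a gene whose hepatic expression follows the time of day through E-boxes, the CACGTG motif bound by CLOCK and BMAL1. Of 15 clock genes tested, 1 passed the adjusted threshold (0.0835% of all tested genes did). At an unadjusted p under 0.05, 3 were higher and 7 lower in KO, beside 8.45% and 2.04% of all tested genes. At least 2-fold differences were found for 6 (3.68% of all tested genes), and the median log2 fold change was −0.38. *Dbp*, a clock output gene, was listed at 56.8 and 41.3 TPM for the WT pair and at 4.73 and 4.97 TPM for the KO pair, a log2 fold change of −3.08 (limma, Benjamini-Hochberg adjusted p = 0.0193). With 1 library left out the log2 fold change of *Dbp* stayed between −3.31 and −2.85, and no gene of all those tested passed the adjusted threshold in any of these fits. *Ciart*, a clock repressor gene, was listed at 5.70 and 5.61 TPM for the WT pair and at 0.301 and 0.194 TPM for the KO pair. *Arntl*, the gene of BMAL1, was listed at 0.241 and 0.243 TPM for the WT pair and at 5.89 and 4.05 TPM for the KO pair. The genotypes did not overlap for 13 of the 15 clock genes, beside 45.3% of all tested genes, in the same libraries in which *Nampt* overlapped between them. As the hour of collection is not given, a difference in hour and a difference in genotype cannot be told apart for the clock genes. The same limit holds for every other gene compared between KO and WT here, the pathway and glucocorticoid-responsive genes included. The part of the hour in their values was not tested.

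**Figure D3:**
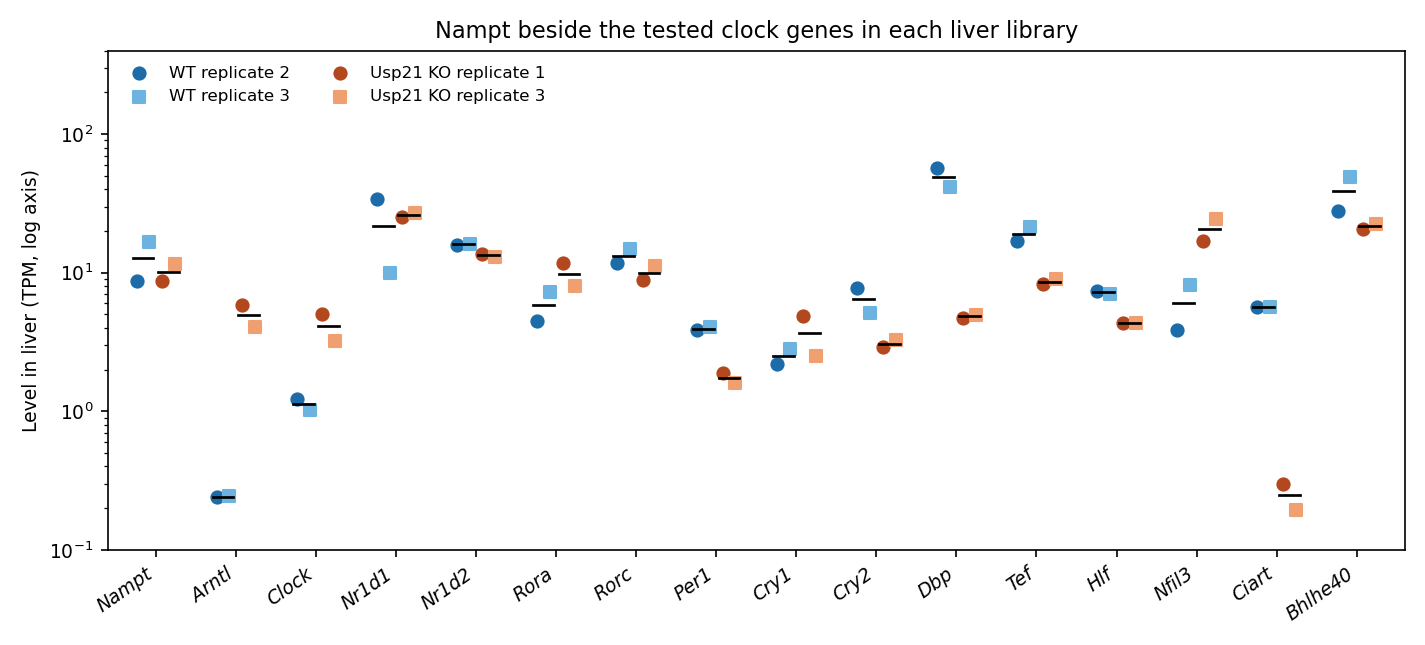
TPM of *Nampt* beside the 15 clock genes tested in each WT and *Usp21* KO library, on a log axis, with a bar at the mean of each pair. The log2 fold change of *Nampt* on log2(TPM + 1), KO minus WT, which is not drawn, was −0.25, with a 95% interval from limma across 0. It lay between that of *Dbp* at −3.08 and that of *Arntl* at 2.25.

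The promoters of the genes were read from RefSeq windows on GRCm38.p6, taken over the 250 bases before each transcription start, to show where E-boxes stand in the pathway. Windows were found for 8 of the 10 genes, 9 windows in all, and none for *Kynu* and *Nnmt*. The palindromic E-box CACGTG, which reads alike on both strands, was in 1 of the 9 windows, beside 6.02% of the 32851 windows of all genes. The D-box, the motif of DBP and its relatives (TTATGTAA or TTATGCAA on either strand), was in 0 of 9, beside 1.501% of all windows. The E-box was in a window of *Nadk*, 40 bases before that start, and it stands in capitals in the sequence of that window, which is shown beside that of *Nampt*, where no capitals appear because neither motif was there. A match is a description of the letters, and the window says nothing about sites further away. The window of *Nampt* lies at chr12:32820085-32820334 and that of *Nadk* at chr4:155563565-155563814, both on the forward strand, written 5′ to 3′.
*Nampt* promoter: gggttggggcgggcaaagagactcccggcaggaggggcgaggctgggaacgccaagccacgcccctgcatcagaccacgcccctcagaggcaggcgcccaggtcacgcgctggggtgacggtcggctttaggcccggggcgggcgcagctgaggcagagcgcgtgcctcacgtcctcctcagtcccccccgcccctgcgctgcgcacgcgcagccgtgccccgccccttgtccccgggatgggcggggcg
*Nadk* promoter: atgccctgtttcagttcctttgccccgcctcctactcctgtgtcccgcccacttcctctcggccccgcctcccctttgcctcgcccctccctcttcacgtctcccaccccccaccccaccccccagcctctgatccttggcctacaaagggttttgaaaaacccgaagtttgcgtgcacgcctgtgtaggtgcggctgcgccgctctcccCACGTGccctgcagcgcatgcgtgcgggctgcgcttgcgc

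*Nadk* (ENSMUSG00000029063, chr4:155562378-155591001, forward strand) encodes the cytosolic NAD kinase. It was listed at 49.1 and 40.8 TPM for the WT pair and at 51.9 and 43.7 TPM for the KO pair, and the genotypes overlapped. Its log2 fold change was 0.09 (SE 0.19, 95% interval −0.39 to 0.57) with a limma adjusted p of 0.876 (Benjamini-Hochberg), and the sign turned under upper quartile scaling (−0.04) and median ratio scaling (−0.06).

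*Nnmt* (ENSMUSG00000032271, chr9:48591877-48605153, reverse strand) encodes nicotinamide N-methyltransferase, which uses S-adenosylmethionine to methylate nicotinamide. The WT pair gave 107 and 167 TPM and the KO pair 221 and 102 TPM. The KO libraries held both the highest and the lowest value. A log2 fold change of 0.17 (SE 0.41, 95% interval −0.86 to 1.19) did not pass (limma, Benjamini-Hochberg adjusted p = 0.889), and it was −0.38 without KO replicate 1. Set against *Nampt*, the competing user of nicotinamide, there were 12.3 and 10.01 *Nnmt* transcripts for each *Nampt* transcript in WT and 25.4 and 8.91 in KO. As for *Acmsd*, KO replicate 1 stood apart and KO replicate 3 lay near the WT libraries.

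**Figure D4:**
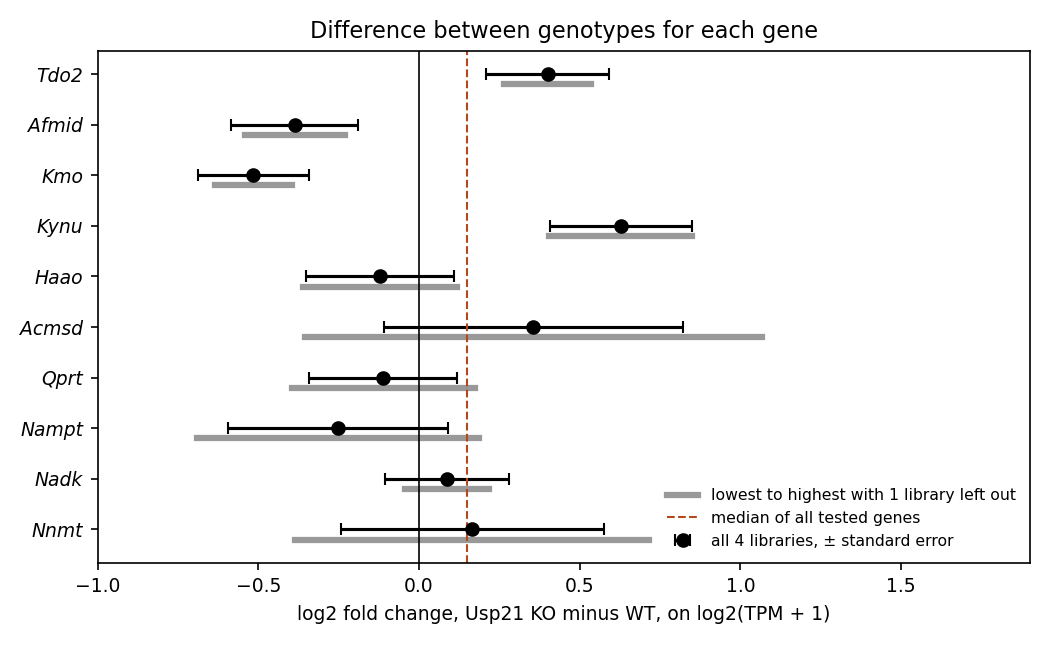
Log2 fold changes on log2(TPM + 1), KO minus WT, of the 10 genes, beside the median of all tested genes (0.15). Bars are ± standard error, and grey lines run from the lowest to the highest value with 1 library left out. The 95% intervals from limma, which are not drawn, of *Kmo* (−0.95 to −0.08) and *Kynu* (0.08 to 1.18) leave out 0. Those of the other 8 genes include it, and none of the 10 passed the adjusted threshold.

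The other genes of these pathways were described from 3 lists of 37 symbols, of which 36 matched a single row and 26 were tested. None passed the adjusted threshold (limma, lowest Benjamini-Hochberg adjusted p = 0.449), and 11 had an unadjusted p under 0.05 (42.3%, beside 10.5% of all tested genes), 8 higher and 3 lower in KO. Both KO libraries lay above both WT libraries for 11 (42.3%, beside 34.4% of all tested genes) and below them for 5 (19.2%, beside 10.9%). The median log2 fold change was 0.25, and it was 0.13 under upper quartile scaling, 0.12 under median ratio scaling, 0.11 without WT replicate 3 and 0.12 without KO replicate 1.

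In the kynurenine pathway, 8 of 12 further genes were tested, with a median log2 fold change of 0.19 (0.06 under upper quartile scaling). At an unadjusted p under 0.05, 3 were higher and 1 lower in KO, beside 8.45% and 2.04% of all tested genes. *Ido1*, the extrahepatic counterpart of *Tdo2*, and *Tph1*, which leads tryptophan to serotonin, were listed at 0 in every library. *Kyat1*, a kynurenine aminotransferase gene, was listed at 53.4 and 55.8 TPM for the WT pair and at 33.0 and 32.7 TPM for the KO pair, lower in each KO library than in either WT library (log2 fold change −0.72, SE 0.16, limma, Benjamini-Hochberg adjusted p = 0.449).

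The aminotransferases did not stand on 1 side of the WT levels. *Kyat3* was listed at 77.2 and 76.0 TPM for the WT pair and at 101 and 147 TPM for the KO pair, and *Aadat* at 66.4 and 43.9 TPM for the WT pair and at 83.9 and 85.2 TPM for the KO pair. For both, the KO libraries lay above the WT libraries, whereas for *Kyat1* they lay below. *Slc16a10*, the gene of an aromatic amino acid transporter, was listed at 16.1 and 12.05 TPM for the WT pair and at 25.6 and 24.5 TPM for the KO pair, the highest log2 fold change of the 3 lists (0.80, SE 0.21), which stayed between 0.61 and 1.00 without each library in turn. *Ido2*, at 23.2 and 21.5 TPM for the WT pair and at 20.5 and 17.7 TPM for the KO pair, lay lower in both KO libraries (log2 fold change −0.22).

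In NAD synthesis, 6 of 9 further genes were tested, with a median log2 fold change of −0.21, which was 0.25 without WT replicate 3. At an unadjusted p under 0.05, 2 were higher and 2 lower in KO, beside 8.45% and 2.04% of all tested genes. *Nmnat1*, whose product makes NAD from its mononucleotide in the nucleus, was listed at 5.04 and 3.89 TPM for the WT pair and at 8.46 and 8.33 TPM for the KO pair. *Nmnat3*, its mitochondrial relative, was listed at 3.44 and 3.13 TPM for the WT pair and at 1.88 and 1.72 TPM for the KO pair. The log2 fold changes of this pair had opposite signs, 0.79 for *Nmnat1* and −0.61 for *Nmnat3*, and the genotypes overlapped for neither.

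*Nadsyn1*, the gene of NAD synthetase, which the de novo route needs for its last step, was listed at 9.99 and 6.25 TPM for the WT pair and at 4.87 and 3.13 TPM for the KO pair (log2 fold change −0.86). *Slc25a51*, which encodes the carrier of NAD into mitochondria, was listed at 7.998 and 12.8 TPM for the WT pair and at 16.1 and 19.6 TPM for the KO pair (log2 fold change 0.75). Neither overlapped between the genotypes, and neither passed the adjusted threshold. *Nmrk1*, a nicotinamide riboside kinase gene, overlapped, at 2.88 and 11.9 TPM for the WT pair and at 5.33 and 4.81 TPM for the KO pair.

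In NAD use and removal, 12 genes were tested, with 3 higher and 0 lower in KO at an unadjusted p under 0.05, beside 8.45% and 2.04% of all tested genes. Both KO libraries lay above both WT libraries for 6 of them and below for 0, beside 34.4% and 10.9% of all tested genes. The median log2 fold change was 0.30, and it was 0.19 under upper quartile scaling, 0.17 under median ratio scaling and 0.17 without WT replicate 3. *Aox3*, an aldehyde oxidase gene whose enzyme class clears methylnicotinamide, was listed at 91.6 and 56.7 TPM for the WT pair and at 125 and 119 TPM for the KO pair (log2 fold change 0.75). *Sirt1*, a nuclear NAD-dependent deacetylase gene, was listed at 1.41 and 2.08 TPM for the WT pair and at 3.30 and 3.31 TPM for the KO pair (log2 fold change 0.66). *Sirt2* was listed at 25.2 and 20.5 TPM for the WT pair and at 30.8 and 34.1 TPM for the KO pair (log2 fold change 0.49). *Nudt12*, *Parp2* and *Aox1* were the other genes above WT in both KO libraries, with log2 fold changes of 0.57, 0.48 and 0.33, and none of the 12 passed the adjusted threshold.

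**Figure D5:**
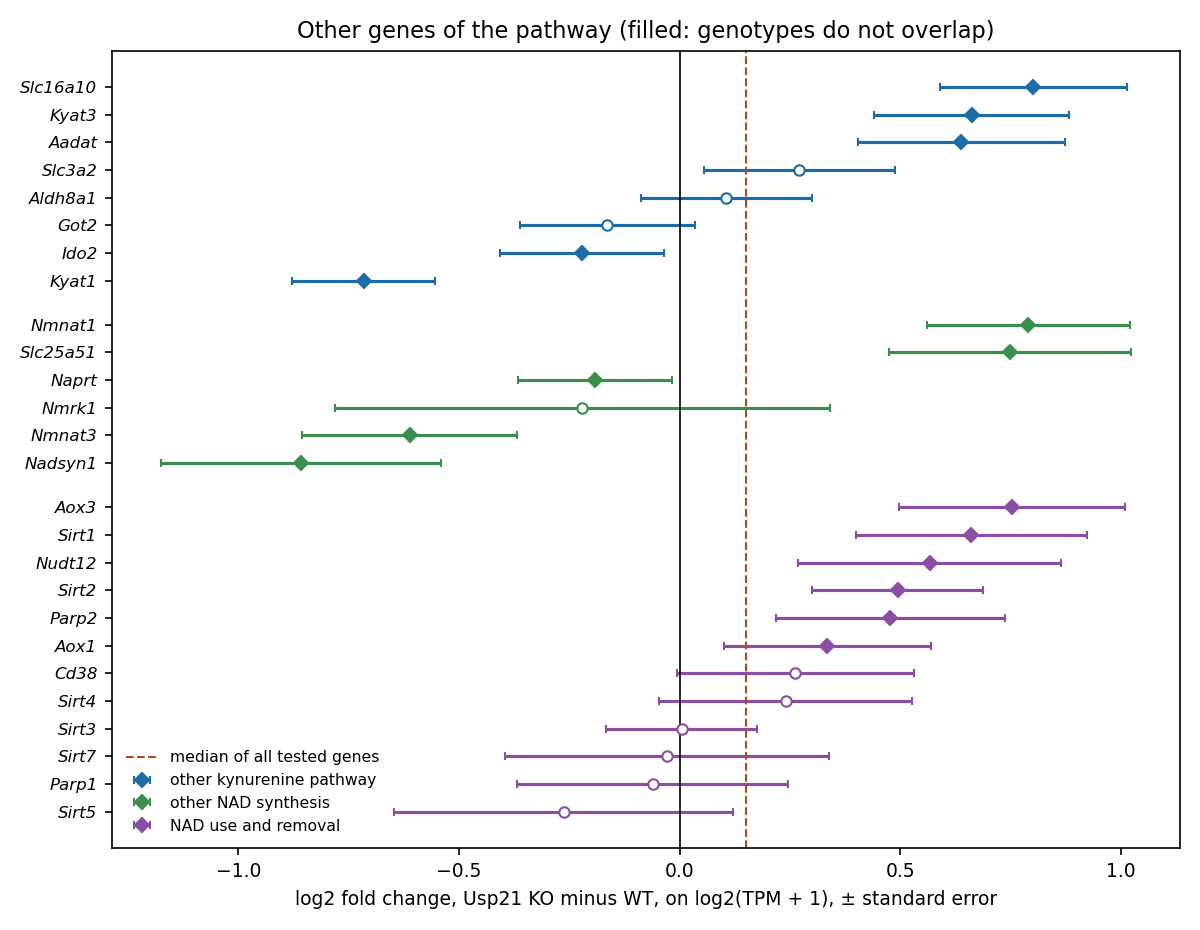
Log2 fold changes on log2(TPM + 1), KO minus WT, of the 26 other pathway genes tested, grouped into the kynurenine pathway, NAD synthesis and NAD use and removal. The values run from −0.86 (*Nadsyn1*) to 0.80 (*Slc16a10*), and the NAD use and removal genes have a median of 0.30, or 0.19 under upper quartile scaling.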

How the data were processed

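Liver RNA-seq libraries were grouped by their labels into WT (replicates 2 and 3) and *Usp21* KO (replicates 1 and 3) and compared. The authors estimated abundance with Salmon and deposited TPM per gene, and a deposited table of log2(TPM + 1) holds the same values. They also deposited read counts from HTSeq divided by effective library sizes as TMM-normalized CPM, a count-based signal, and its log2. The labels name the build mm10, and tool versions and the strand setting are not given in the sources used here. Among the deposited CPM values, 100% were whole multiples of 1 read in their library (tolerance 0.02 reads), which gave 148164, 110427, 145306 and 102898 reads.

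The 10 genes, the lists and the tests were chosen with earlier results of these data known. Tests were run on genes whose mean reached 1 TPM, on log2(TPM + 1) with limma 3.58.1 in R 4.3.3 (lmFit, eBayes with trend, two-sided, Benjamini-Hochberg adjustment). The pseudocount of 1 understates differences of low genes, and the prior degrees of freedom were 3.62, so each p-value draws on the variances of other genes too. A 2-fold difference means 1 on this scale. All members were named, any gene of the 3 pathway lists could be, and of the clock, glucocorticoid and marker lists those past the adjusted threshold and up to 3 with the lowest unadjusted p. *Gm20708* and *Fh1* were named because they overlap members. *Sgk1*, *Mt1*, *Mt2* and the periportal, lymphocyte and neutrophil markers were named from their lists after their values were seen. *Nnt* matched 2 rows and entered no count.

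Alternatives were pseudocounts of 0.1 and 5, no filter, a mean of at least 5 TPM, upper quartile and median ratio scaling, no moderation of variances, the CPM table with limma, edgeR 4.0.16 (quasi-likelihood) and DESeq2 1.42.0 on the recovered reads, each library left out in turn (with the genes tested kept), and, added after the data were seen, *Afmid* summed with *Gm20708*. The scripts were tested on simulated data. Coordinates are from GENCODE M21 (GRCm38) and promoter sequences from RefSeq (GRCm38.p6).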

Additional observations from a re-analysis of the deposited data

How the results depend on the processing

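With all libraries kept, none of the 10 genes or of the 26 other pathway genes reached an adjusted p under 0.05 in an alternative that tested it. Of the 26, 22 were tested at a mean of at least 5 TPM and 5 in the CPM table. The unadjusted p count of 2 was 0 without moderation of variances, where 806 of all tested genes were called. When 1 library was left out, the 2-fold count of 0 was 0 to 1. The count of 4 genes that did not overlap was then 5 to 8. Leaving 1 out leaves a genotype with 1 library, assumed to vary like the other. A lone library lies apart from a pair more easily than 2 libraries do. The share of all tested genes was not counted there, so the rise is not read as a result. In the CPM table, with 4 of the 10 genes above 0 and at most 6 reads in a library, limma, edgeR and DESeq2 gave 0 unadjusted calls, 4, 3 and 4 genes past 2-fold and 2 that did not overlap. Of 132 recomputed log2 fold changes, 118 kept their sign and 14 turned. *Tdo2* turned in the CPM table (−3.23 with limma, −3.22 with edgeR and −2.57 with DESeq2, on 1 or 0 reads per library). The log2 fold change of *Nadk* was −0.044 under upper quartile scaling and −0.062 under median ratio scaling. When 1 library was left out, the log2 fold changes ran from −0.044 to 0.22 for *Nadk*, −0.38 to 0.72 for *Nnmt*, −0.36 to 0.12 for *Haao*, −0.69 to 0.19 for *Nampt*, −0.36 to 1.07 for *Acmsd* and −0.40 to 0.17 for *Qprt*. *Afmid*, *Kmo* and *Kynu* kept their sign in each alternative that gave a value. The cause of these turns was not tested. Over all genes, edgeR made 12 adjusted calls, DESeq2 1, limma on CPM 1, limma without moderation 0 and limma without any 1 library 0, beside 8 in the reported fit. No paired analysis was possible because the genotypes share only replicate number 3.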

Other observations

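Pericentral hepatocyte markers summed to 5832 and 3872 TPM in WT replicates 2 and 3 and to 3925 and 3626 TPM in KO replicates 1 and 3. Of 6 tested, 5 were lower in both KO libraries than in both WT libraries (10.9% of all tested genes were) and 0 passed the adjusted threshold of limma's test, with a median log2 fold change of −0.42, which was −0.16 without WT replicate 2. Of the 7 periportal markers, 3 were higher in both KO libraries (34.4% of all tested genes were) and 0 lower, with a median of 0.38, which was 0.10 without KO replicate 1.

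Markers of bile duct cells summed to 14.6 and 15.9 TPM in WT and to 37.9 and 24.5 TPM in KO, nearly all of it *Spp1* (13.2 and 12.7 TPM in WT, 33.4 and 20.7 TPM in KO). Sinusoidal endothelial markers summed to 31.6 to 49.6 TPM and stellate cell markers to 7.76 to 15.3 TPM, with the genotypes overlapping in the first sum.

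*Nnt*, the gene of the mitochondrial transhydrogenase that passes hydride between NAD and NADP, has 2 entries at 1 locus. The first was listed at 6.52 and 4.35 TPM in WT and at 5.37 and 5.35 TPM in KO, and the second at 3.69 and 2.84 TPM in WT and at 7.55 and 7.04 TPM in KO (log2 fold change 0.97, limma, Benjamini-Hochberg adjusted p = 0.461). Reads of overlapping entries can be split between them, and the sum of both was not tested.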
